A study of Homo sapiens with 15 samples.

Results

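Untransfected PC3 cells were compared with untransfected DU145 cells, which put 4 of the 15 arrays of the study side by side. They were chosen by their titles, as the 2 arrays of PC3 and the 2 arrays of DU145 that received no microRNA mimic, each lettered b and c. Both lines are established human prostate cancer lines. According to the labels, PC3 was derived from a metastasis in bone and DU145 from one in the brain. Cells of both lines grew in medium with 10% heat-inactivated serum, and total RNA was read on Affymetrix Human Gene 1.0 ST arrays, 1-colour arrays whose probes lie along whole transcripts. The other 11 arrays came from the same lines 48 h after reverse transfection with 20 nM of a scrambled mimic (2 PC3 arrays, 1 DU145 array), a miR-224 mimic (2 and 2) or a miR-452 mimic (2 and 2). The untransfected arrays carry the same 48 h time. The labels do not say whether the untransfected cells met the transfection reagent, nor whether arrays b and c came from separate cultures, so p-values measure the spread between these arrays, which may be technical. Each tumour type is represented by a single line, so a difference between PC3 and DU145 is a difference between these lines and not between kinds of metastasis.

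The prostate gland is lined by luminal cells, which express androgen-regulated secretory genes, over a layer of basal cells. Neighbouring epithelial cells hold together through cadherins, whose tails bind beta-catenin, and through alpha-catenin, which ties that complex to the actin skeleton. In epithelial-mesenchymal transition (EMT) cells exchange E-cadherin for N-cadherin and deposit fibronectin-rich matrix. PC3 and DU145 are both used as androgen-independent models of the disease.

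Values were deposited on the log2 scale after separate normalization of each line by the authors, so line, normalization set and anything else that differed between the 2 sets of arrays cannot be told apart. On the deposited scale the median array level was 6.94 and 6.99 in PC3 and 6.51 in both DU145 arrays. The 4 arrays were therefore quantile normalised together before any comparison, which brought the median line difference over all 18377 genes from 0.41 to 0.00 on the log2 scale. Correlations across features were 0.997 and 0.998 (Pearson) within PC3 and within DU145 and 0.931 to 0.932 between the lines. A gene is called below where limma gave a Benjamini-Hochberg adjusted p under 0.05 and the log2 difference, PC3 minus DU145, was over 1 in size, which is 2-fold. The method the authors name, RMA16, is understood to add 16 to the linear signal before the logarithm, which makes fold values of weak signals smaller. Levels were not compared between genes, because each gene has its own probes. Genes with close relatives or processed copies (histones, GSTM, IFITM, SLFN, cystatin, keratin and ribosomal protein genes, and CD24) carry values that probes shared between copies could blend.

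Of the 18377 genes, 1026 were higher and 874 lower in PC3, which is 5.58% and 4.76% of all genes and 10.3% together. At any size, 11060 genes had an adjusted p under 0.05 (60.2%), 5604 of them higher and 5456 lower in PC3. Most called differences were moderate, with 1453 between 2-fold and 4-fold, 408 between 4-fold and 16-fold and 39 over 16-fold (24 higher, 15 lower). On the deposited values the split was 2839 higher and 397 lower in PC3, against the shifted median given above. By within-array rank, with 10 percentile points as the limit, 2219 genes were higher and 2116 lower. By mean rank within the arrays, 39 genes lay below percentile 25 in PC3 and above percentile 75 in DU145, and 51 lay the other way round, where a rank also depends on the probes of the gene. Every called gene had an adjusted p of 0.000146 or less by limma.

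The 12 protein-coding genes with the largest excess in PC3 were led by SULF2. SULF2, an enzyme that removes sulfate groups from heparan sulfate outside the cell, read 11.59 and 11.68 in PC3 and 5.91 and 6.09 in DU145. The arrays of the lines lay far apart, a difference of 5.63 ± 0.081 (SE, n = 2 arrays per line), or 49.7-fold (limma adjusted p = 1.68e-11). SRGN, the core protein of the proteoglycan serglycin, read 11.67 and 11.61 against 6.27 and 6.09 (44.0-fold). FAR2, which reduces fatty acyl-CoA to fatty alcohol, read 10.78 and 10.64 against 5.29 and 5.25 (43.4-fold). CST1, a secreted cystatin that inhibits cysteine proteases, read 10.75 and 10.90 against 5.49 and 5.33 (42.6-fold). CDH11, a cadherin of osteoblasts and other mesenchymal cells, read 11.22 and 11.23 against 5.81 and 5.84 (42.2-fold). For each of these genes both DU145 arrays were low and both PC3 arrays high. Arrays that did not overlap were a condition of this ranking, so the separation is no separate support. ADGRF1, an adhesion G-protein-coupled receptor, differed by 5.02 ± 0.069, and FST, the secreted activin antagonist follistatin, by 4.84 ± 0.070. The microfibril gene FBN2 differed by 4.81 ± 0.072 and HPGD, which inactivates prostaglandins, by 4.76 ± 0.068. ABI3BP, an extracellular matrix protein, differed by 4.58 ± 0.077, ANPEP, a surface aminopeptidase, by 4.56 ± 0.086, and PLAT, tissue plasminogen activator, by 4.52 ± 0.094 (adjusted p = 1.01e-10). The vault RNA gene VTRNA1-2, outside the protein-coding genes to which this ranking was limited, read 10.92 and 11.04 in PC3 against 5.39 and 5.31 in DU145; it was picked after its values were seen.

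The 12 with the largest deficit in PC3 were led by UCHL1. UCHL1, a ubiquitin hydrolase abundant in neurons and neuroendocrine cells, read 6.37 and 6.25 in PC3 and 12.10 and 12.11 in DU145, a difference of -5.80 ± 0.073 or 55.5-fold (limma adjusted p = 1.68e-11). LMO3, a LIM-domain transcription cofactor, read 5.23 and 5.24 against 10.82 and 10.81 (47.7-fold). EFEMP1, a fibulin of the extracellular matrix, read 6.08 and 6.13 against 11.35 and 11.37 (38.1-fold). For each of these genes the arrays of 1 line lay close together. The gap to the other line follows from the choice of genes, which was made on these values. CTNNA1, which codes for alpha-catenin, read 5.51 and 5.42 in PC3 against 10.54 and 10.46 in DU145 (-5.03 ± 0.073, 32.7-fold). STAT3, the transcription factor activated by cytokines of the interleukin-6 family, read 6.27 and 6.43 against 11.30 and 11.27 (-4.93 ± 0.077, 30.6-fold). RAB5C, a small GTPase of early endosomes, read 6.66 and 6.72 against 11.62 and 11.57 (30.1-fold). The remaining 6 were the linker histone gene H1-5 (-4.75), the proton pump subunit gene ATP6V0A1 (-4.70), PARP6 (-4.68), the caveolar coat gene CAVIN1 (-4.67), the histone gene H3C11 (-4.51) and CXADR (-4.40), a junction protein that serves as a virus receptor. The SE of these 6 differences ran from 0.069 for CAVIN1 to 0.078 for H1-5.

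The arrays with mimics gave a second look at the lines, on RNA that the untransfected comparison did not use. With the scrambled mimic, 10.4% of genes were called between the lines, with miR-224 11.8% and with miR-452 10.5%. Of the 1026 genes higher in untransfected PC3, 877 were also called higher with the scrambled mimic (85.5% of the untransfected list and 78.8% of the scrambled list), 904 with miR-224 (88.1% and 65.7%) and 899 with miR-452 (87.6% and 74.9%). Of the 874 lower genes, 682 were also called lower with the scrambled mimic (78.0% and 84.6%), 637 with miR-224 (72.9% and 79.6%) and 639 with miR-452 (73.1% and 87.3%). No gene was called in opposite directions. For 1870 of the 1900 called genes (98.4%), all 6 transfected PC3 arrays lay on the same side of all 5 transfected DU145 arrays, against 8644 of all 18377 genes (47.0%). All 24 leading genes were among them. UCHL1 read 6.40 to 6.53 (median 6.48) in the 6 transfected PC3 arrays and 11.85 to 12.05 in the 5 transfected DU145 arrays, and SULF2 read 11.28 to 11.73 (median 11.59) and 6.18 to 6.47. The line difference changed by more than 2-fold with transfection (adjusted p under 0.05) for 4 genes, 0.0218% of those tested, none of them a leading gene. Below that size, among the leading genes, the difference of FST was smaller in the transfected cells by the same fit (-0.57, adjusted p = 0.0058). By this fit some genes described below changed as well. The deficit of EGR1 in PC3 was smaller with the mimics (0.69, adjusted p = 0.0064). The excess of FN1 (0.67, adjusted p = 0.0059), DSC3 (0.69, adjusted p = 0.032) and FBN1 (0.44, adjusted p = 0.043) was larger.

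**Figure D1:**
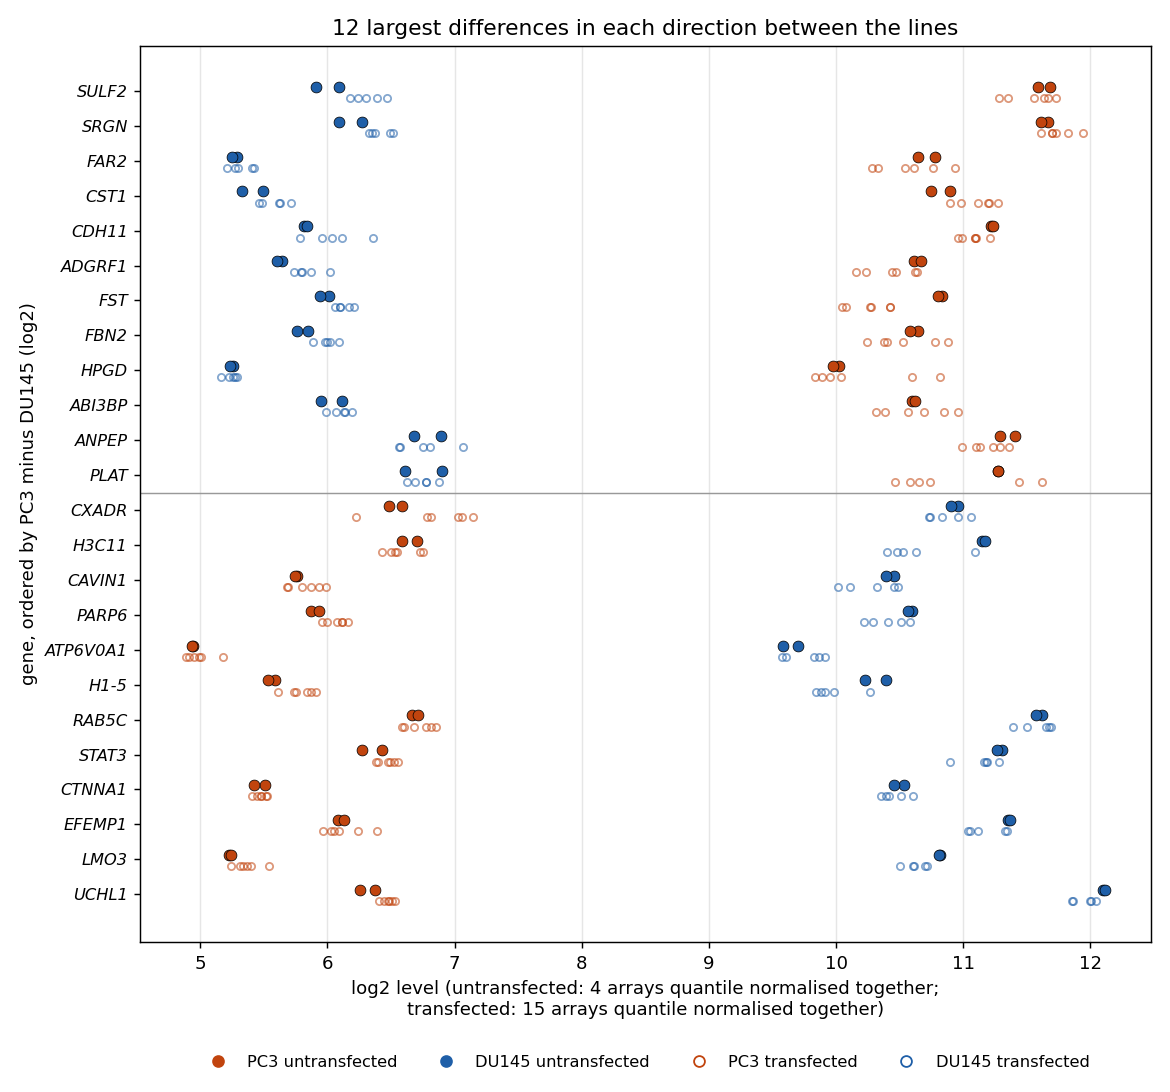
Log2 level (horizontal axis) of the 12 genes with the largest positive and the 12 with the largest negative difference, PC3 minus DU145, 1 gene per line; filled points are the 4 untransfected arrays and open points the 11 transfected arrays. For each gene the PC3 and DU145 points form separate groups, for the filled points by the choice of genes. Filled points are from the 4 arrays normalised together, open points from all 15. UCHL1 lies at 6.25 to 6.53 in PC3 and 11.85 to 12.11 in DU145.

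Several of the lowest genes in PC3 are neighbours, so they were set in chromosome order with the measured protein-coding genes around them (order from the RefSeq annotation of GRCh38.p14; the build behind the array annotation is not given in the sources used here, and these neighbourhoods were picked after the values were seen). On chromosome 17, the genes KAT2A (-2.95 ± 0.071), RAB5C (-4.91 ± 0.069), STAT5B (-2.71 ± 0.073), STAT3, CAVIN1 and ATP6V0A1 (-4.70 ± 0.073) were all called lower in PC3 within 11 consecutive measured genes. KAT2A, a histone acetyltransferase, read 6.66 and 6.72 in PC3 and 9.61 and 9.68 in DU145. STAT5B, a relative of STAT3 downstream of growth hormone, read 5.87 and 5.88 against 8.65 and 8.52, and STAT5A (-0.82) did not pass the 2-fold limit. The genes between them that were not called, HSPB9 (0.53), KCNH4 (-0.26), HCRT (-0.20) and GHDC (-0.30), had DU145 means of 5.52 to 6.96. On either side, DNAJC7 (-0.37), NKIRAS2 (-0.36), NAGLU (-0.83), COASY (-0.30) and MLX (-0.51) were measured above 7 in both lines and were not called, while TUBG2, 10 places beyond STAT3, was called lower (-1.13). All 6 called genes had non-overlapping arrays in the transfected cells too, which held for 98.4% of all called genes and 47.0% of all genes. STAT3 differed by -4.44, -4.69 and -4.75 with the scrambled, miR-224 and miR-452 mimics.

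The promoter sequences of STAT3, RAB5C and ATP6V0A1 are shown because these are the genes with a RefSeq window here among the leading genes of the stretch. Each is the RefSeq window of GRCh38.p14 from 250 bases before to 50 bases after the gene's start, written 5′ to 3′ on the gene's strand, with the dinucleotide CG in capitals. They lie at chr17:42388393-42388692 (minus strand), chr17:42154940-42155239 (minus strand) and chr17:42458628-42458927 (plus strand).
STAT3: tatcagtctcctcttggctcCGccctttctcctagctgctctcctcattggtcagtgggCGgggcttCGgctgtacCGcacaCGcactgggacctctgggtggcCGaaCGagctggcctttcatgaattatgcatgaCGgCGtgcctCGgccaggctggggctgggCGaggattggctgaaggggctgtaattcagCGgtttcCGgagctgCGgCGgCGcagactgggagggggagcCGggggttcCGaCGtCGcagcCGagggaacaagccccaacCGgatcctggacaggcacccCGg
RAB5C: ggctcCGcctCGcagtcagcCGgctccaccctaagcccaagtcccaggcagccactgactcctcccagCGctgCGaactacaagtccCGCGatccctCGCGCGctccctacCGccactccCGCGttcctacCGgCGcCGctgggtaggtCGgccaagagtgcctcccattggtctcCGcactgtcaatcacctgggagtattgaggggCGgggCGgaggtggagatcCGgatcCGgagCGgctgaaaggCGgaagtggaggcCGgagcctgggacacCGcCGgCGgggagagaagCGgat
ATP6V0A1: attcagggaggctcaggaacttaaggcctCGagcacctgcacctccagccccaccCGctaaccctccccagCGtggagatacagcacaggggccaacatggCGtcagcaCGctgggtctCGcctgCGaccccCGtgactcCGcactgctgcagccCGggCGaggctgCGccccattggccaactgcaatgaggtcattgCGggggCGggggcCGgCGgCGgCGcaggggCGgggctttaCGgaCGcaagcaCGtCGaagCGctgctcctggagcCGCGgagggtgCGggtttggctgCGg
CG reads the same on both strands and can share no base with another CG. The STAT3 window holds 23, that of RAB5C 29 and that of ATP6V0A1 28, where the median over all 35116 RefSeq windows of 300 bases was 14. Over the tested protein-coding genes that have a window the median was 22, so the STAT3 count lay near it. At least as many were found in 35.8%, 24.2% and 26.2% of all windows. STAT5B holds 55 (0.4% of windows hold as many) and KAT2A 18 (44.5%). The counts describe these windows, and no methylation or binding was measured here.

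On chromosome 15, PARP6 (-4.68), HEXA and NEO1 were called lower in PC3 within 9 consecutive measured genes. HEXA, the alpha subunit of the lysosomal enzyme hexosaminidase A, read 5.29 and 5.26 in PC3 and 9.14 and 9.09 in DU145 (-3.84 ± 0.069). NEO1, the guidance receptor neogenin, read 6.12 and 6.18 against 9.77 and 9.78 (-3.63 ± 0.069). Between and beside them PKM (-0.23), ARIH1 (-0.25), BBS4 (-0.45) and ADPGK (-0.62) were not called, and their PC3 means were 12.36, 9.75, 7.56 and 7.99. On chromosome 5, CTNNA1 stood alone beside HSPA9 (-0.13), SIL1 (-0.10), MATR3 (-0.05) and PAIP2 (0.17), each near equal in the lines. The early response gene EGR1, 3 measured genes away, read 7.11 and 7.24 in PC3 and 10.05 and 10.17 in DU145 (-2.94 ± 0.079). On chromosome 10, RNLS, which codes for renalase, read 6.32 and 6.46 against 8.98 and 8.98 (-2.59 ± 0.074). STAMBPL1 (-1.06), a deubiquitinase, and the death receptor gene FAS (-1.27) were lower as well, out of 15 measured genes from MINPP1 to LIPA, though on the deposited values neither of these 2 passed. STAMBPL1 was also lost on median-centred values and without DU145 array c, and FAS was called with none of the 3 mimics (-0.91, -0.73 and -0.79) and STAMBPL1 only with the scrambled mimic. ATAD1 read lower by 0.56 there without being called, and PAPSS2 differed by 0.70. On chromosome 6, H1-5, H3C11 and H4C13 (-3.83 ± 0.072) were lower in PC3 while H2BC14, 4 places from H3C11, was higher (2.77 ± 0.087).

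**Figure D2:**
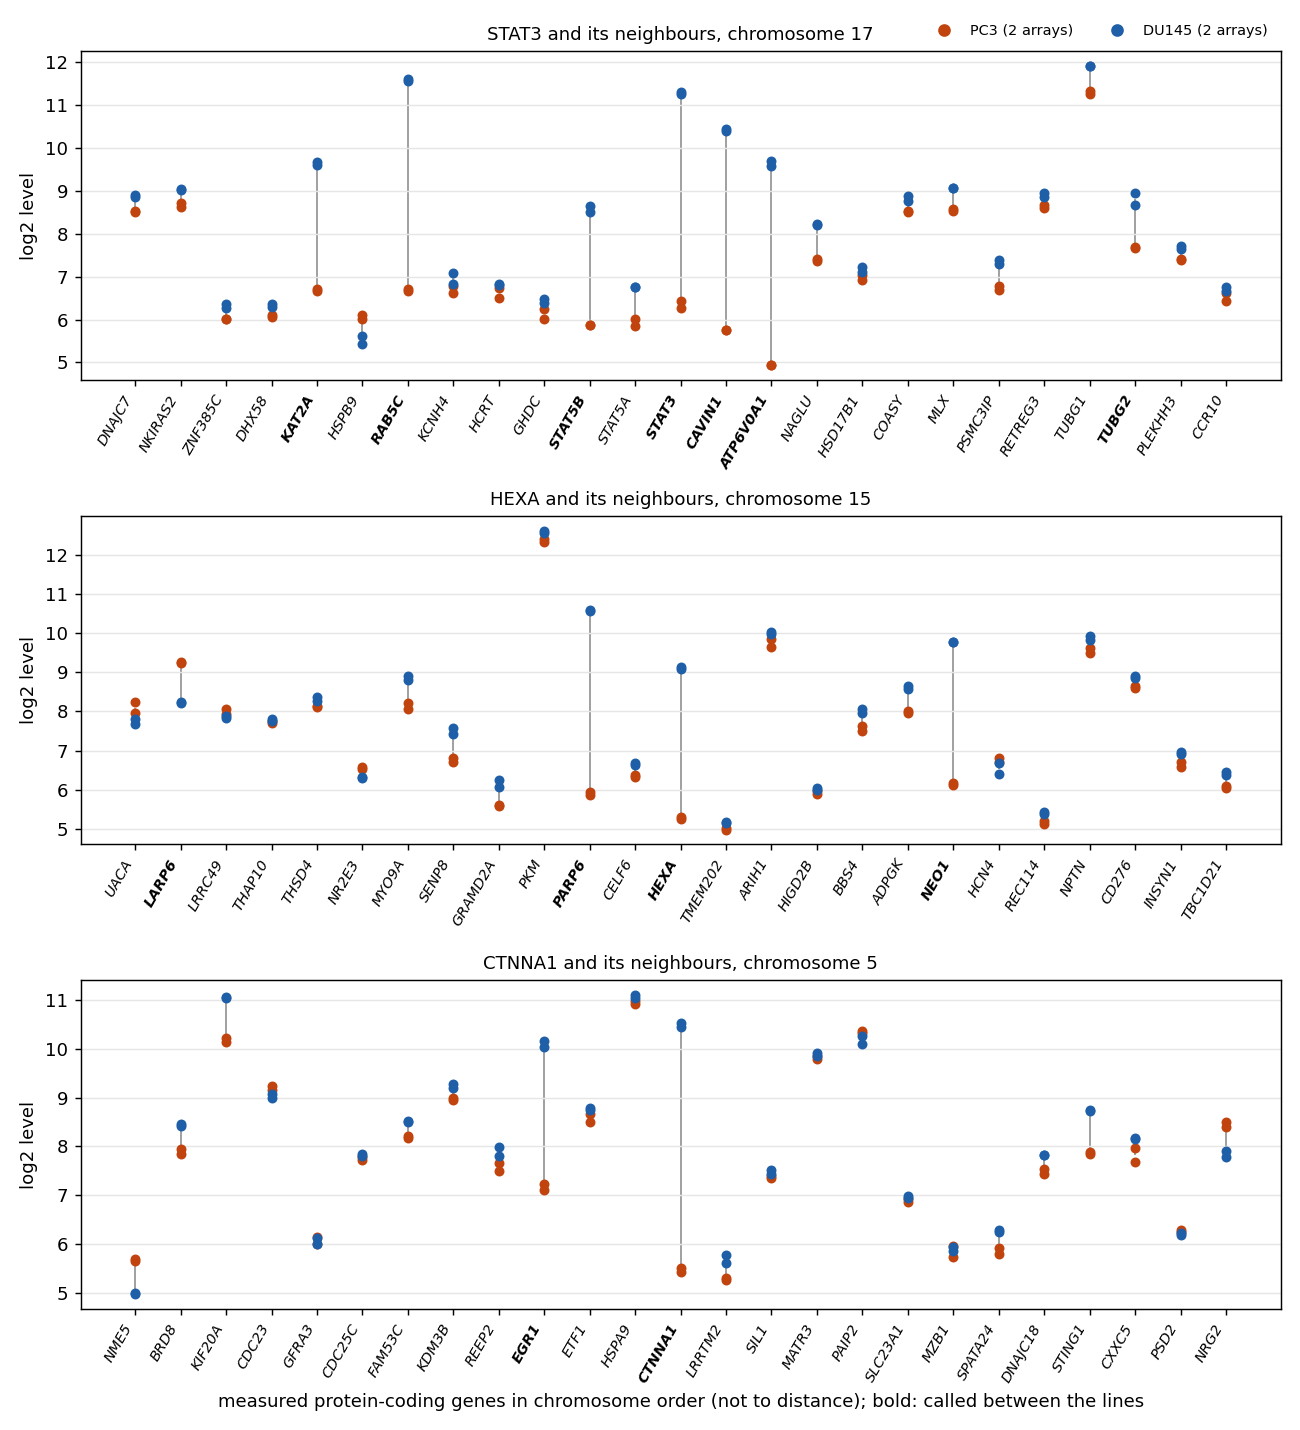
Log2 level (vertical axis) on the 4 untransfected arrays for measured protein-coding genes in chromosome order around STAT3, HEXA and CTNNA1; points are arrays, grey bars join the means of the lines, and bold names are called genes. In the STAT3 panel RAB5C, STAT3, CAVIN1 and ATP6V0A1 have PC3 values of 4.94 to 6.72 and DU145 values of 9.58 to 11.62, while COASY and MLX beside them are close in both lines.

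Over the 16853 protein-coding genes in order, runs of at least 3 adjacent called genes with the same direction numbered 24 higher in PC3 (84 genes) and 23 lower (82 genes). They were picked on these values and carry no test. The stretch RBM47, NSUN7, APBB2, UCHL1 and LIMCH1 on chromosome 4 was lower throughout, as were SLFN11, SLFN12, SLFN13 and SLFN12L on chromosome 17. ARID5B, RTKN2, ZNF365, ADO, NRBF2 and JMJD1C on chromosome 10 were 6 adjacent genes higher in PC3, and PCBP3, COL6A1 and COL6A2 on chromosome 21 were another higher run. By whole chromosome, calls leaned most to PC3 on chromosome X, where 90 of 694 genes were higher and 8 lower (12.97% and 1.15%). Chromosome 3 had 93 higher and 28 lower of 1011 genes, and chromosome 20 had 37 and 10 of 534. Chromosome 9 leaned the other way with 19 higher and 74 lower of 731 genes, but 39 and 25 on the deposited values. Chromosome 15 (18 and 37 of 574) and chromosome 16 (13 and 26 of 759) leaned to DU145 as well, but to PC3 on the deposited values (51 and 22, 38 and 10). The median difference on the deposited values was 0.17 on chromosome 9 and 0.41 over all genes.

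**Figure D3:**
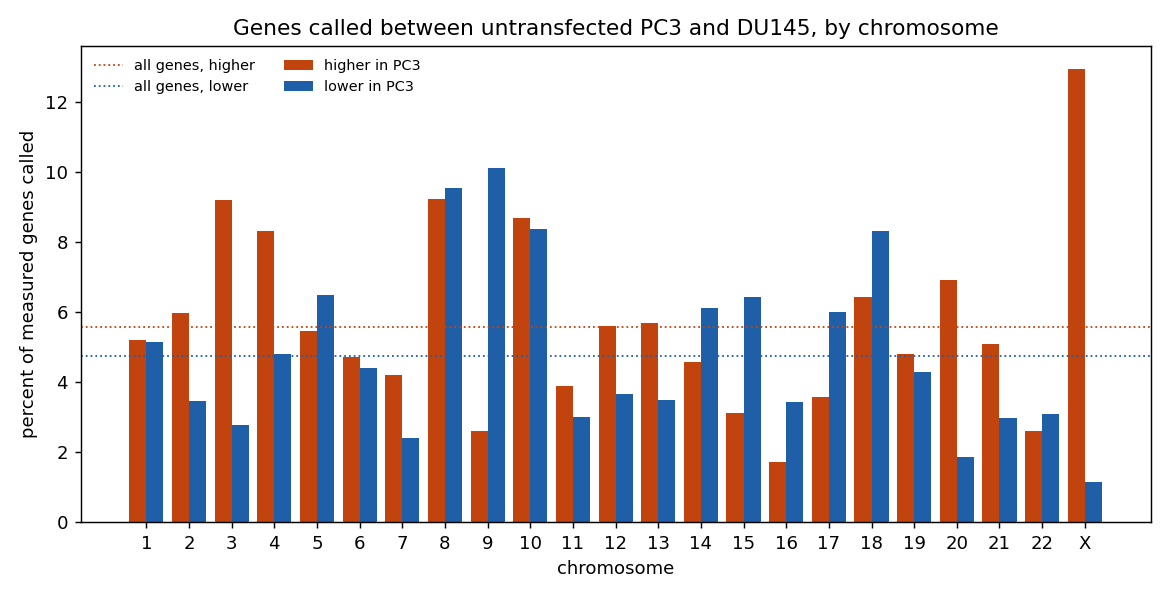
Percent of the measured genes of each chromosome called higher (orange) or lower (blue) in untransfected PC3; dotted lines are the shares over all genes, 5.58% and 4.76%. Chromosome X stands highest for genes higher in PC3 at 12.97% and chromosome 9 highest for genes lower in PC3 at 10.1%, though on the deposited values chromosome 9 had 39 higher and 25 lower.

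Genes of epithelial junctions were divided. Of 25 measured, 3 were called higher and 7 lower in PC3 (median difference -0.29, against 0.00 over all genes), where 5.58% and 4.76% of all genes were called. These shares over all genes stand beside each list count below. The counts were 4 and 5 on the deposited values (median 0.21, against 0.41 over all genes) and 3 and 9 by rank. The desmosome and adherens junction genes DSC3 (2.40 ± 0.092), PKP2 (1.28 ± 0.071) and CTNNB1 (1.04 ± 0.081) were higher, though CTNNB1 did not pass by rank or without PC3 array b. Besides CTNNA1, the classical cadherin genes CDH3 and CDH1 were lower, while the cadherin genes CDH2 (4.45) and CDH11 (5.40) of the mesenchymal list were higher. P-cadherin, CDH3, read 6.80 and 6.72 in PC3 and 10.50 and 10.53 in DU145, 13.5-fold lower (-3.76 ± 0.070, adjusted p = 5.81e-11). E-cadherin, CDH1, read 6.83 and 6.73 against 9.23 and 9.23, 5.48-fold lower (-2.46 ± 0.071). The tight junction genes CLDN1 (-2.38 ± 0.069) and CLDN7 (-1.39 ± 0.072), the desmosomal cadherin gene DSG2 (-1.49 ± 0.070) and the adhesion gene EPCAM (-1.58 ± 0.092) were lower too. EPCAM was the exception among the 10 called members in that its transfected arrays overlapped between the lines. JUP (0.04), DSP (-0.29) and CLDN3 (0.06) were close in both lines.

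Of 21 mesenchymal and EMT genes, 8 were called higher and 4 lower in PC3 (median 0.05), where 5.58% and 4.76% of all genes were called. N-cadherin, CDH2, read 10.26 and 10.21 in PC3 and 5.72 and 5.85 in DU145, 21.8-fold higher (4.45 ± 0.074, adjusted p = 3.29e-11). Fibronectin, FN1, read 10.97 and 10.99 against 7.04 and 7.07 (3.93 ± 0.068), and FBN1, the microfibril gene fibrillin-1, read 8.82 and 8.77 against 5.81 and 5.76 (3.01 ± 0.070). With CDH11, these are matrix and adhesion genes of fibroblast-like cells. The EMT transcription factor genes did not go one way, since SNAI2 (2.20 ± 0.073) and TWIST1 (1.77 ± 0.068) were higher, SNAI1 (-1.40 ± 0.073) was lower, and ZEB1 (0.24) and ZEB2 (0.21) were not called. TGFBI, a secreted matrix protein induced by TGF-beta, read 6.20 and 6.16 in PC3 against 10.38 and 10.34 in DU145, 18.1-fold lower. TAGLN (-1.84) and CCN1 (-1.17, not called on the deposited values) were also lower. Vimentin, VIM, the intermediate filament of mesenchymal cells, read 11.99 and 12.06 in PC3 and 12.18 and 12.27 in DU145 and was not called. All 12 called members had non-overlapping arrays in the transfected cells, which held for 98.4% of all called genes and 47.0% of all genes.

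**Figure D4:**
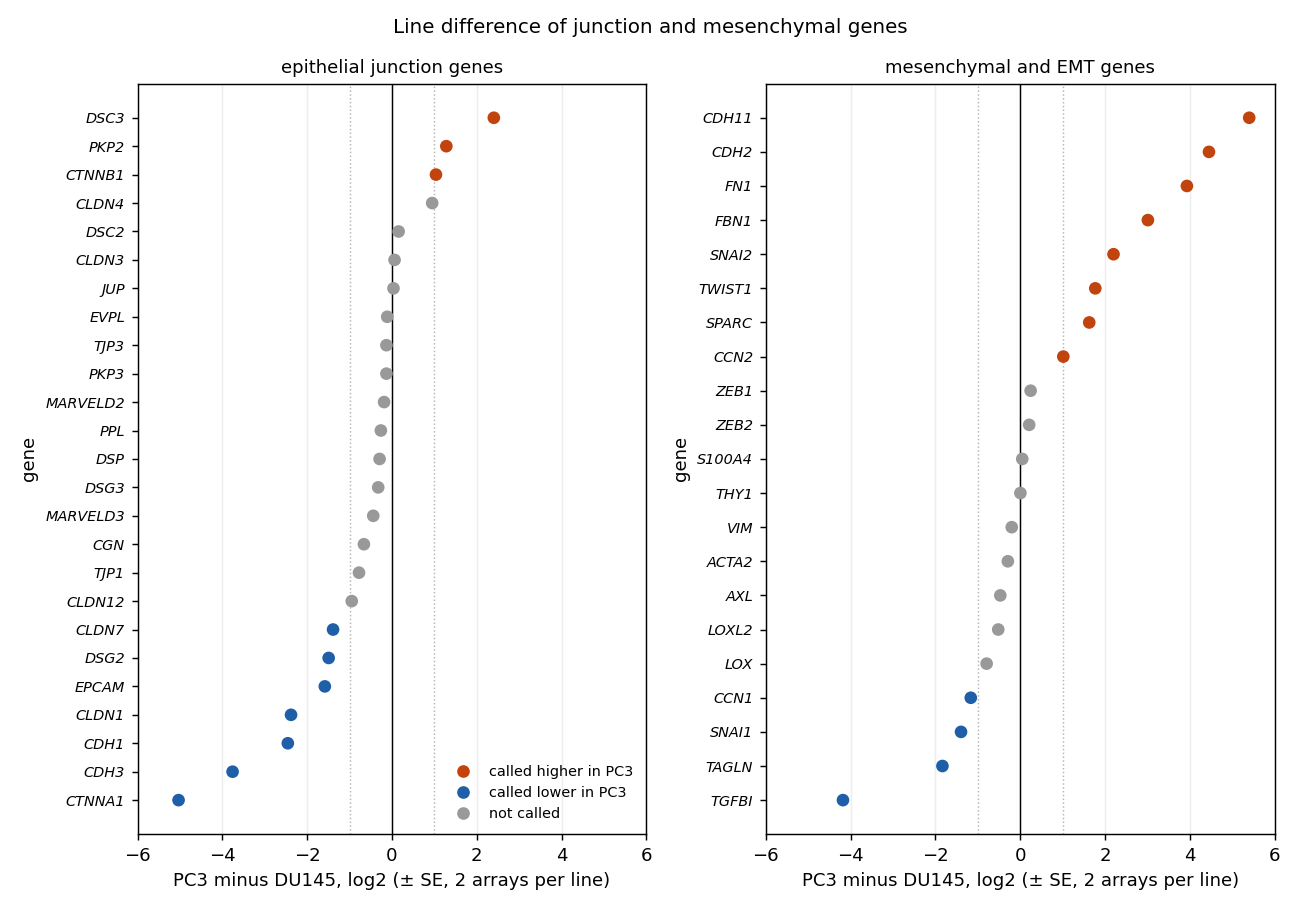
Difference PC3 minus DU145 (log2, horizontal axis; error bars, mostly hidden by the points, are the SE with 2 arrays per line) for the 25 epithelial junction genes and the 21 mesenchymal and EMT genes; orange and blue points were called, grey were not, and dotted lines mark 2-fold. CTNNA1, CDH3 and CDH1 are at the lower end of the first panel (-5.03, -3.76 and -2.46) and CDH11, CDH2 and FN1 at the upper end of the second (5.40, 4.45 and 3.93).

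Keratins, the filaments of epithelial cells, were measured as 14 genes, of which 0 were higher and 3 lower in PC3, but 0 and 0 on the deposited values and 1 and 1 by rank. KRT8 read 10.96 and 11.14 in PC3 and 12.33 and 12.29 in DU145 (-1.26 ± 0.079), KRT18 10.44 and 10.66 against 11.51 and 11.42 (-0.91, not called) and KRT19 differed by 0.08. KRT7 (-1.44) and KRT80 (-1.47) were the other called members, and the transfected arrays of KRT80 overlapped. Among 15 regulators of epithelial identity, 2 were higher and 0 lower in PC3 (2 and 3 by rank). They were FOXA2, a forkhead factor, at 9.31 and 9.43 against 6.84 and 6.95 (2.48 ± 0.076), and EHF (1.04 ± 0.089), which was lost on median-centred values and without PC3 array b. FOXA1 (0.41), GRHL2 (0.17) and ESRP2 (-0.60) were not called.

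Both lines are labelled prostate cancer, and genes of the luminal prostate were looked at for that reason. The secreted kallikreins KLK2 (0.14) and KLK3 (0.34) and the acid phosphatase ACP3 (0.12) were not called. KLK3 read 6.14 and 6.16 in PC3 and 5.73 and 5.90 in DU145. Of 15 luminal and androgen-regulated genes, 3 were higher and 0 lower in PC3. HOXB13, the homeobox factor of the prostate, read 10.06 and 10.09 in PC3 and 6.28 and 6.52 in DU145, 12.8-fold higher (3.68 ± 0.086, adjusted p = 1.95e-10). SPDEF, an ETS factor of luminal and goblet cells, read 10.06 and 10.20 against 6.94 and 6.91 (3.20 ± 0.074), and NDRG1 differed by 1.18 ± 0.077, a call lost by rank. Of 13 basal genes, the Notch ligand gene JAG1 (9.87 and 10.02 against 6.46 and 6.48, 3.48 ± 0.076) and the integrin gene ITGA6 (1.29 ± 0.081, lost by rank) were higher, and KRT5 (0.41), KRT14 (-0.36) and EGFR (-0.54) were not called. Elsewhere in the HOXB cluster the order was the reverse of HOXB13: HOXB9 (8.66 on both DU145 arrays, 6.22 and 6.18 in PC3, -2.46 ± 0.068), HOXB7 (-1.99) and HOXB2 (-1.90) were lower in PC3 and 6 of the 10 measured genes were not called. In the HOXC cluster 1 of 7 genes was lower, HOXC10 (-1.16), but on the deposited values 1 was higher and 0 lower. Of 9 HOXD genes 0 were called, and HOXD9 (-0.97, adjusted p = 8.5e-07) and HOXD3 (0.60, adjusted p = 3.5e-05) had the smallest p.

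Caveolae are flask-shaped pits of the plasma membrane built from caveolins and coated by cavins. Of 9 genes, 0 were higher and 4 lower in PC3, and the same 0 and 4 were counted on the deposited values and by rank. CAVIN1, the cavin needed to form the pit, read 5.76 and 5.75 in PC3 against 10.45 and 10.40 in DU145, 25.5-fold lower (adjusted p = 1.8e-11). CAVIN3 read 6.52 and 6.57 against 9.12 and 9.28 (-2.66 ± 0.078), EHD2, an ATPase at the neck of the pit, differed by -1.94 ± 0.074 and CAVIN2 by -1.67 ± 0.076. CAV1, the caveolin itself, read 11.94 and 12.01 in PC3 and 12.44 and 12.44 in DU145 (-0.46), which was not called.

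Collagen genes leaned to PC3, while the matrix genes EFEMP1 and TGFBI given above were lower. Of 24 collagen genes, 6 were higher and 0 lower (median 0.40), where 5.58% and 4.76% of all genes were called. All 3 chains of collagen VI, a beaded-filament collagen around cells, were among the 6. COL6A1 read 11.07 and 11.14 in PC3 and 8.60 and 8.60 in DU145 (2.51 ± 0.069), COL6A2 9.70 and 9.94 against 8.11 and 8.15 (1.70 ± 0.087) and COL6A3 9.38 and 9.33 against 5.79 and 5.74 (3.59 ± 0.069). The arrays of the lines did not overlap for any of the 3 chains, which also held for 14688 of all 18377 genes. COL4A5 (1.65), COL5A2 (1.61) and COL12A1 (1.18) were the others. Of 17 laminin and basement membrane genes 4 were higher and 2 lower, with LAMB1 (1.89 ± 0.070) and LAMA4 (1.06 ± 0.074, lost on median-centred values and without PC3 array b) on the higher side beside FN1 and SPARC, and LAMA1 (-2.04 ± 0.069) and LAMC1 (-1.17 ± 0.073) on the lower. On the deposited values 7 were higher and 1 lower, with LAMC1 no longer called. Of 24 integrins, the receptors for this matrix, ITGB8 (2.19 ± 0.093), ITGA2 (1.43 ± 0.072) and ITGA6 were higher and ITGB3 (-1.58 ± 0.075) was lower.

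Of 38 proteases and inhibitors that act on matrix, 9 were higher and 7 lower in PC3, 13 and 2 on the deposited values. Beside CST1 and PLAT, the membrane metalloprotease gene MMP16 read 8.23 and 8.08 in PC3 and 5.48 and 5.33 in DU145 (2.75 ± 0.083) and the serpin gene SERPINB5 differed by 2.14 ± 0.077. The lysosomal protease gene CTSL read 7.95 and 7.96 against 10.27 and 10.15 (-2.25 ± 0.073). MMP24 (-1.53), ADAM9 (-1.22) and CTSV (-1.11) were lower as well. The urokinase gene PLAU (0.17) and its receptor gene PLAUR (0.22) were not called.

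**Figure D5:**
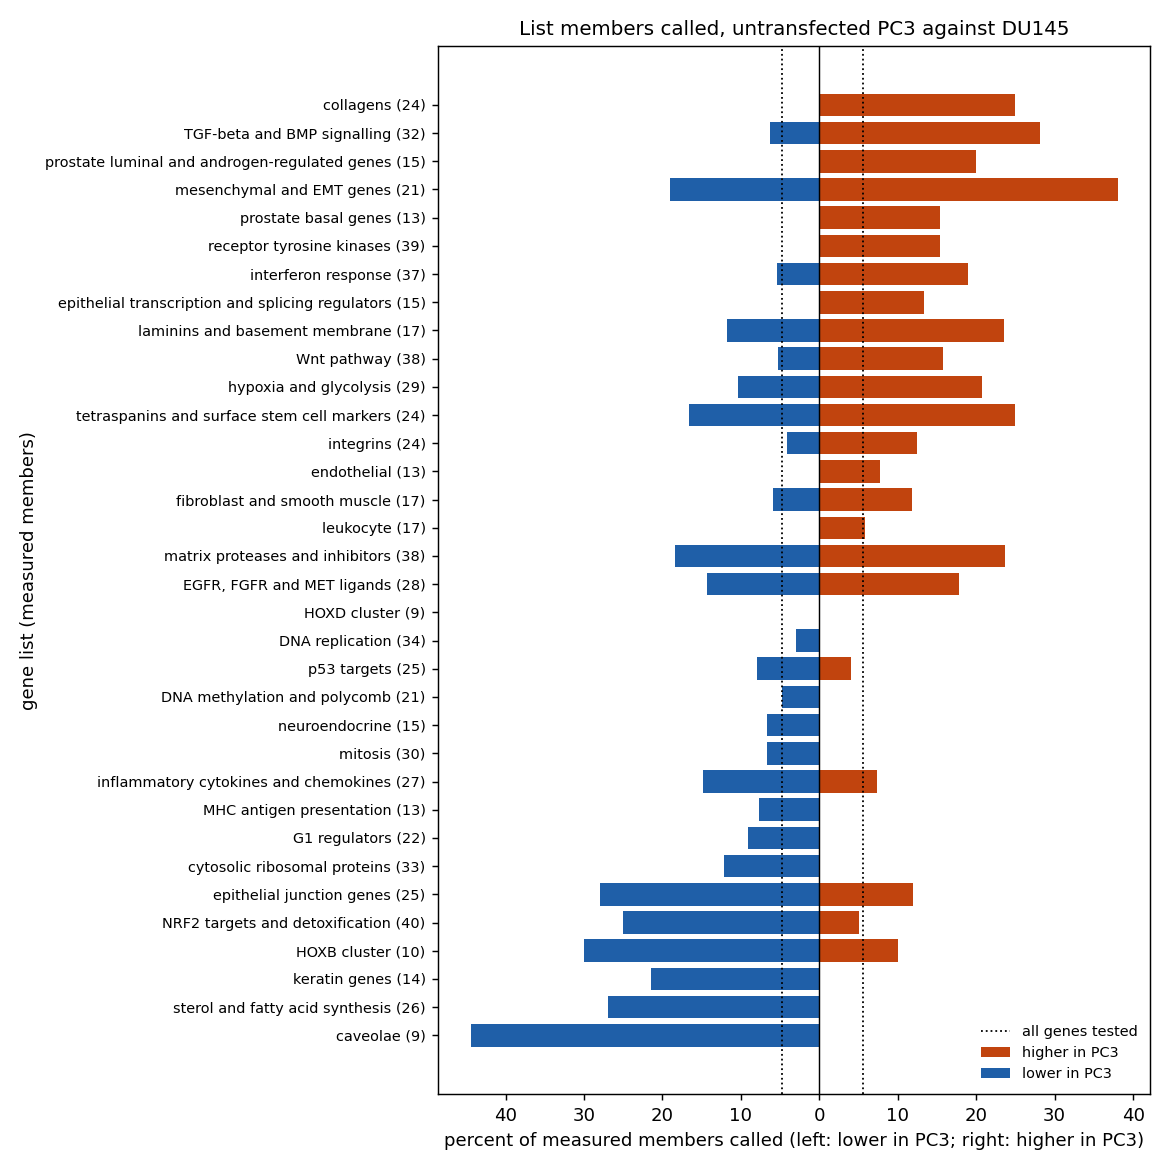
Percent of the measured members (number in brackets) of each gene list called higher in untransfected PC3 (right, orange) or lower (left, blue), with dotted lines at the shares over all genes, 5.58% and 4.76%. Mesenchymal and EMT genes have 8 of 21 members higher, caveolae 4 of 9 lower, while the blue bars of keratin and sterol genes (3 of 14 and 7 of 26) fall to 0 on the deposited values.

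Of 32 genes of TGF-beta and BMP signalling, 9 were higher and 2 lower (median 0.24; 11 and 1 on the deposited values). The activin subunit genes INHBA (8.86 and 8.82 against 6.14 and 6.24, 2.65 ± 0.072) and INHBB (10.37 and 10.45 against 7.72 and 7.82, 2.64 ± 0.073) were higher together with FST, whose product binds activin. LTBP1, which stores latent TGF-beta in the matrix, read 10.56 and 10.52 in PC3 against 6.81 and 6.66 in DU145 (3.81 ± 0.076). The BMP antagonist gene NOG (1.99) and the receptor gene BMPR1B (1.90) were also higher. The 2 lower members were ID3 (7.08 and 7.15 against 8.85 and 8.79, -1.71 ± 0.071) and ID1 (-1.26 ± 0.076), inhibitors of basic helix-loop-helix factors that BMP signals induce. The receptor genes TGFBR1 (-0.78) and TGFBR2 (0.27) and SMAD2 (-0.64), SMAD3 (0.14) and SMAD4 (0.02) were not called.

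In the Wnt pathway 6 of 38 genes were higher and 2 lower in PC3, with 6 and 6 by rank and 7 and 0 on the deposited values. The ligand genes WNT7A (9.70 and 9.68 against 6.75 and 6.74, 2.95 ± 0.068) and WNT5A (8.43 and 8.37 against 5.65 and 5.65, 2.75 ± 0.069) were higher, as were the receptor genes FZD8 (8.02-fold) and FZD4 (2.01). The receptor gene FZD7 (-1.35) and the antagonist gene SFRP1 (-1.02) were lower, but neither was called on the deposited values, and SFRP1 also lost its call without PC3 array b, without DU145 array b and on 15 arrays. AXIN2 (0.49), a common target of the pathway, and LEF1 (0.18) were not called.

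Among 39 receptor tyrosine kinases, 6 were higher and 0 lower in PC3, with 10 and 0 on the deposited values and 8 and 4 by rank. KDR, the VEGF receptor of endothelial cells, read 8.81 and 8.70 in PC3 against 5.75 and 5.61 in DU145 (3.08 ± 0.078). EPHA7 (1.98 ± 0.078), PDGFRA (1.52 ± 0.077) and EPHB6 (1.24 ± 0.088) followed. EGFR (-0.54), ERBB2 (-0.93), MET (0.78) and AXL (-0.47), which are drug targets, did not pass the 2-fold limit. Of 28 ligands of such receptors, 5 were higher and 4 lower, and 10 and 3 on the deposited values, where GAS6 was not called. FGF5 read 8.16 and 8.03 against 5.81 and 5.66 (2.36 ± 0.080), and VEGFC (1.53), PDGFC (1.498) and PDGFD (1.49) were also higher. The EGFR ligand epiregulin, EREG, read 6.35 and 6.52 in PC3 and 10.18 and 10.23 in DU145, 13.7-fold lower (-3.77 ± 0.078), and VEGFA (-1.63 ± 0.073), NRG4 (-1.62) and the AXL ligand gene GAS6 (-1.33) were lower.

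Inflammatory cytokine genes showed 2 higher and 4 lower of 27, a balance that turned on the deposited values (3 and 2). IL1B read 8.21 and 8.25 in PC3 against 5.49 and 5.47 in DU145 (2.75 ± 0.069), and IL33 differed by 2.14 ± 0.088. CSF1, the growth factor of macrophages, read 7.11 on both PC3 arrays and 10.19 and 10.18 in DU145, 8.41-fold lower (-3.07 ± 0.068). The chemokine genes CXCL16 (-1.55), CXCL8 (-1.46) and CXCL2 (-1.33) were lower, the last 2 not called on the deposited values, and IL6 (-0.99) fell just short of the limit.

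Of 37 interferon response genes, 7 were higher and 2 lower in PC3, 8 and 0 on the deposited values and 9 and 7 by rank. IFI44L read 8.24 and 8.18 in PC3 against 5.58 and 5.32 in DU145 (2.76 ± 0.090). OAS2, which makes the activator of RNase L, read 8.06 and 8.16 against 5.81 and 5.71 (2.35 ± 0.075), and the antiviral membrane protein genes IFITM1 (2.07 ± 0.070) and IFITM3 (1.66 ± 0.076) were higher as well. HERC6 (-1.30) and HERC5 (-1.21) were lower, and the transfected arrays of HERC6 overlapped. MX1 (-0.30), IFIT2 (-0.24), ISG15 (0.41) and IRF9 (-0.31) were not called. IFI44L differed by 2.85 with the scrambled mimic, 2.22 with miR-224 and 4.54 with miR-452. The interferon list had 10 higher and 0 lower with miR-224 and 16 and 0 with miR-452, where 11.8% and 10.5% of all genes were called. Its median was 0.10 untransfected and 0.16, 0.15 and 0.76 with the scrambled, miR-224 and miR-452 mimics. Of 13 genes of antigen presentation, HLA-DMA (-1.65 ± 0.075) was lower and 0 were higher (median -0.55). Of the 13 genes, 6 were lower by rank and 3 with 16 taken off the linear values. Without averaging, 5 of 30 features were lower, where several features can belong to 1 gene. B2M (-0.06) and PSMB8 (-0.01) were not called.

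Genes of the antioxidant response controlled by the factor NRF2 leaned to DU145. Of 40 NRF2 targets and detoxification genes, 2 were higher and 10 lower in PC3 (median -0.38), where 5.58% and 4.76% of all genes were called. The counts were 5 and 6 on the deposited values and 3 and 9 by rank. NQO1, a quinone reductase, read 10.03 and 10.09 in PC3 against 12.38 and 12.34 in DU145 (-2.30 ± 0.069, lost by rank). GPX3, a secreted glutathione peroxidase, read 6.26 and 6.09 against 9.16 and 9.22 (-3.01 ± 0.079), and TXN, thioredoxin, 9.21 and 9.27 against 11.67 and 11.72 (-2.45 ± 0.070). Both subunits of the glutathione-synthesis enzyme, GCLM (-1.31) and GCLC (-1.25), and HMOX1 (-1.99), SRXN1 (-1.26), ABCG2 (-2.18) and ABCC2 (-1.23) were lower. GSTM1 read 6.60 and 6.56 against 10.28 and 10.20 (-3.66 ± 0.071) while its close relative GSTM2 read 9.30 and 9.50 against 7.47 and 7.53 (1.90 ± 0.082), so the neighbouring paralogs moved in opposite directions. NFE2L2 itself (-0.39) and its inhibitor gene KEAP1 (-0.07) were not called.

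Sterol and fatty acid synthesis had 0 higher and 7 lower of 26 genes (median -0.61), but 0 and 0 on the deposited values and 0 and 10 by rank. The members lower were HMGCS1 (8.34 and 8.17 against 9.88 and 9.73, -1.55 ± 0.084), IDI1 (-1.41), SCD (-1.36), ACAT2 (-1.34), ELOVL6, INSIG1 and DHCR7. Hypoxia and glycolysis genes showed 6 higher and 3 lower of 29. ALDOC (1.67 ± 0.069), P4HA1 (1.51 ± 0.069), CA12 (1.37) and HK1 (1.30) were higher, and VEGFA, the glucose transporter gene SLC2A1 (-1.35 ± 0.068) and EGLN3 (-1.18) were lower. On the deposited values 9 were higher and 1 lower, with SLC2A1 and EGLN3 no longer called, and SLC2A1 was not called by rank either.

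Few proliferation genes were called in the untransfected lines. Of 34 DNA replication genes 1 was called, MCM4 (-1.29 ± 0.074), against 10.3% of all genes, and of 30 mitosis genes 2 were, AURKB (-1.17 ± 0.077) and CCNB2 (-1.05 ± 0.079). The medians were -0.18 and -0.35, and -0.36 and -0.32 with the scrambled mimic. With miR-224, 8 replication and 10 mitosis genes were lower and 0 higher, where 11.8% of all genes were called. With miR-452, 2 and 6 were lower and 0 higher, where 10.5% of all genes were called. On the deposited values, where the median gene was shifted up in PC3, the untransfected counts became 3 higher and 0 lower for replication. For mitosis they became 1 and 0. Of 22 G1 regulators, CDKN2A and CDKN1A (-1.08, lost on 15 arrays) were lower and 0 were higher, but 2 were higher and 1 lower on the deposited values. CCND1 (0.83), MYC (0.12) and E2F1 (0.13) were not called. Of 25 p53 targets, GADD45A (1.16 ± 0.072) was higher and FAS and CDKN1A were lower, with 3 and 0 on the deposited values. Of 21 DNA methylation and polycomb genes EZH1 (-1.13) was lower and 0 were higher, while EZH2 (-0.64) and DNMT1 (-0.10) were not called, and the deposited values gave 2 higher and 0 lower. Among 33 cytosolic ribosomal protein genes 0 were higher and 4 lower, RPS20 (-1.55), RPL23 (-1.38), RPL27 (-1.03) and RPS16 (-1.001), and 1 and 1 on the deposited values.

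Tumour suppressor genes reported as altered in either line were taken 1 by 1, where 8 were measured. CTNNA1 is given above. CDKN2A, which codes for p16 and p14ARF, read 8.14 and 8.16 in PC3 and 9.89 and 9.88 in DU145 (-1.73 ± 0.068, adjusted p = 7.91e-09). KDM6A, an X-linked histone demethylase, read 9.22 and 9.13 against 8.09 and 8.08 (1.09 ± 0.070). RB1, the retinoblastoma gene, read 9.57 and 9.44 in PC3 and 9.48 and 9.55 in DU145, so that the arrays of the lines overlapped (-0.01 ± 0.075, adjusted p = 0.881). SMAD4 (0.02 ± 0.070), LATS1 (-0.05 ± 0.077) and KEAP1 (-0.07 ± 0.076) were likewise within the spread of the arrays, and STK11 differed by 0.56 ± 0.082 without reaching 2-fold. RNA level says nothing of sequence changes in these genes.

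The mimics of the study carry the sequences of miR-224 and miR-452, which lie in the GABRE gene on chromosome X, and that host locus was examined in the cells without mimic. GABRE, a subunit of the GABA-A receptor, read 5.66 and 5.55 in PC3 and 5.43 and 5.52 in DU145, a difference of 0.13 ± 0.075 (limma adjusted p = 0.155), so no difference was detectable. The neighbouring receptor genes GABRA3 (0.30 ± 0.071) and GABRQ (-0.19 ± 0.070) and MAGEA4 (0.65 ± 0.078) were not called either, though MAGEA4 passed by rank and with 16 taken off the linear values. All 4 genes read under 6 on the 4 arrays, where the added constant would compress any difference. The microRNAs themselves were not analysed here.

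Surface proteins used to mark progenitor cells and vesicles, a list of 24, had 6 higher and 4 lower in PC3. CD24 read 6.41 and 6.12 in PC3 against 8.97 and 8.88 in DU145 (-2.66 ± 0.096), and TSPAN7 differed by -2.73 ± 0.094 and NT5E by -1.37. LGR5 (1.56 ± 0.094), TSPAN1 (1.49 ± 0.077), TSPAN15 (1.28) and TSPAN8 (1.19) were higher. The call of NT5E was lost on the deposited values, that of TSPAN15 by rank and that of TSPAN8 on median-centred values. CD44 (0.49) and PROM1 (-0.04), often used with CD24, were not called.

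Markers of other cell types were read for the same arrays. Of 15 neuroendocrine genes UCHL1 alone was called, while the defining genes CHGA (0.06), SYP (0.32) and INSM1 (-0.21) were not, and on the deposited values 1 was higher and 1 lower. Of 17 leukocyte genes LCP1, an actin-bundling protein of blood cells and many cancer lines, was higher (9.11 and 9.06 against 6.02 and 6.04, 3.05 ± 0.069), with 1 higher and 2 lower by rank. PTPRC, the pan-leukocyte gene, read 4.96 and 4.97 in PC3 and 5.23 and 5.15 in DU145, and CD3E (-0.09) and CD14 (-0.52) were not called. Of 13 endothelial genes KDR was higher, and CDH5 (0.12), VWF (0.17) and PECAM1 (0.86) were not called, but 4 were higher and 0 lower on the deposited values and 4 and 1 by rank. Of 17 fibroblast and smooth muscle genes FBLN1 (1.43) and PDGFRA were higher and TAGLN was lower, and COL1A2 (0.00), DCN (-0.24), LUM (0.26) and MYH11 (-0.01) were not called.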

How the data were processed

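Total RNA was measured on 15 arrays, 8 of PC3 and 7 of DU145, and so few limit the precision. Per the labels, 100 ng was labelled with the WT Expression Kit after RNeasy extraction. The deposited log2 values were made by the authors with RMA16 in GeneSpring GX 11.0, each line normalized separately, per the series design text. The genome build is not given in the sources used here.

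The table held 28869 features: 19310 with 1 symbol (19279 updated through Entrez numbers in RefSeq), 1752 with several and 7807 with none. The 4 untransfected arrays were quantile normalised together over all features and averaged per symbol, which gave 18377 genes (685 with several features); none was removed for a low level. Lines were compared with limma 3.58.1 in R 4.3.3 (lmFit, eBayes, two-sided, Benjamini-Hochberg over all genes), with 2 residual and 7.94 prior degrees of freedom. Differences with mimics used all 15 arrays, quantile normalised together, with 8 group means, where the single DU145 scrambled array was taken to vary like the others. Tested on simulated data, the fit recovered 100% of 200 changed genes among 18377. All these changes were set above the 2-fold limit and far above the simulated noise. Full recovery was therefore built in, and it checks the code without measuring sensitivity.

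The members and the 44 gene lists (925 of 1051 entries measured) were chosen with earlier results of these data known. Named were the 12 largest protein-coding differences in each direction whose arrays did not overlap (Y-linked genes and XIST left out), every measured gene of the host locus and tumour suppressor lists, and up to 4 called members in each direction of each described list, or the 2 with the smallest p. Other members named for context were chosen after their values were seen. Alternatives changed the scaling, offset, filter, averaging, moderation, block and arrays.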

Additional observations from a re-analysis of the deposited data

Results flagged for a closer look

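The line difference itself changed with transfection for 4 of 18377 genes (0.0218%), by the contrast of the mean line difference over the 3 mimics minus the untransfected line difference (limma on all 15 arrays, adjusted p under 0.05 and over 2-fold). Untransfected values and differences given here are from the 4 arrays normalised together. Transfected values, differences with mimics and changes are from all 15 arrays normalised together, so the parts need not add up to the changes. SAMD9, an interferon-induced antiviral gene, read 8.13 and 7.99 in untransfected PC3 and 7.95 and 7.97 in untransfected DU145, then 7.97 to 9.60 (median 8.17) in transfected PC3 and 6.75 to 7.81 (median 6.96) in transfected DU145, a change of 1.35 ± 0.14 (adjusted p = 0.00163). IFIT1, a translation inhibitor induced by interferon, read 7.44 and 7.34 against 8.18 and 8.28 untransfected and 7.01 to 8.38 against 7.07 to 7.43 transfected, a change of 1.07 ± 0.11. Its line difference was -0.84 untransfected, -0.059 with the scrambled mimic, -0.080 with miR-224 and 1.04 with miR-452. Only with miR-452 was IFIT1 higher in PC3, so the mean over the mimics hides a difference between them. TCP11L2 differed by 0.74 untransfected and by 1.56, 2.51 and 1.51 with the scrambled, miR-224 and miR-452 mimics (change 1.20 ± 0.13, adjusted p = 0.00221). SHISA3, an antagonist of Wnt and FGF receptors, differed by 3.63 untransfected and by 2.55, 2.36 and 1.66 with the mimics (change -1.27 ± 0.15, adjusted p = 0.00268).

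Features outside the gene table also differed between the untransfected lines in the same fit. Of 1752 features with several symbols 136 were called, 57 higher and 79 lower in PC3 (7.76%), and of 7807 features with no symbol 229 were called, 119 higher and 110 lower (2.93%), against 10.3% of genes.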

How the results depend on the processing

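The deposited values keep the median shift of 0.41 between the separately normalized lines. On them 2839 genes were higher and 397 lower in untransfected PC3, and by within-array rank 2219 and 2116. With 15 arrays on the deposited scale the counts higher and lower were 2897 and 319 with the scrambled mimic, 3444 and 305 with miR-224 and 3097 and 290 with miR-452, and 4 genes had a line difference lowered by transfection, against 1. The count of line differences raised by transfection ran from 3 to 5 over the arrays left out in turn (5 without PC3 untransfected b, PC3 scrambled c, DU145 untransfected c or DU145 miR-452 c). The replicate block, with the array letter as a term, left 1026 higher and 874 lower. The letters share nothing else that the labels state, and deviations of same-lettered arrays correlated at 0.02 across genes. All 24 leading genes and 108 of the 150 called named genes were called in the same direction under each alternative, and 0 called genes reversed. Of the genes not called, GABRE turned to -0.092 on median-centred values and GABRQ to 0.10 on deposited values. RB1 turned to 0.58 and 0.12, KEAP1 to 0.52 and 0.058 and LATS1 to 0.51 and 0.055 (deposited and median-centred). With arrays left out, RB1 ran from -0.0783 to 0.0488, LATS1 from -0.122 to 0.0142 and SMAD4 from -0.0211 to 0.0519. The cause of these changes was not tested beyond the scaling itself. Only 2 arrays per line limit every comparison, and values near the floor limit folds of weak genes.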

Other observations

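Of 24 PI3K and AKT pathway genes, the adaptor gene IRS1 (1.03) and the regulatory subunit gene PIK3R3 (1.27) were higher in PC3 and IRS2 (-1.49) was lower, so the IRS adaptors differed in opposite directions. Of 26 S100 and annexin genes, ANXA7 (1.44) and ANXA11 (1.06) were higher and ANXA3 (-1.18) and S100A13 (-1.01) lower. Of 23 cancer-testis antigen genes, DDX43 (-1.76) was lower and 0 were higher. Of 7 mismatch repair genes, MLH3 (-1.003) was lower and 0 were higher. Each count stands beside 10.3% of all genes called, and these genes were named after their values were seen.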
